A study of Mus musculus with 10 samples.

Results

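The regions described here are stretches of the mouse genome at which HA-tagged SET was listed as enriched both in cells without endogenous SET and in cells that kept it. Overlapping peaks of 8 deposited peak lists were merged, with 1 shared base as the least overlap. A merged region was kept if it held a peak from at least 1 library of cells with endogenous SET and peaks from both replicates of SETα, or both replicates of SETβ, in cells without it. On the 17 autosomes analysed, and without the segment of chromosome 6 between 118 and 136 Mb, which holds 6122 merged regions of its own, 232 regions met this rule. They made up 4.86% of the 4772 merged regions with a peak in cells that kept SET, and 4.92% of the 4711 with both replicates of an isoform in cells that lacked it. All merged regions numbered 40331 in the same scope and 48578 in the whole series. The members were chosen by measured values, their presence in the peak lists, so how many libraries list them is given as a description with no test.

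The study used chromatin immunoprecipitation with sequencing in KH2, a line of mouse embryonic stem cells built to take a transgene that doxycycline switches on. In the SET KO lines the transgene returned HA-tagged SETα or SETβ to cells lacking SET, here called addback. In the other lines it added the same proteins to cells that kept their own SET, here called overexpression. Each of the 4 groups had 2 replicates, and the cells of all 8 libraries received 1 µg/ml doxycycline for 24 h. Cells were grown on feeder fibroblasts that were depleted before harvest, all were fixed with the protein crosslinker DSG before formaldehyde, and an HA antibody was used in every library. The labels give each group a line of its own, and do not say whether a line is a single clone, so line and group cannot be told apart. They also do not say that replicates came from separate cultures, so spreads measure the difference between these samples, which may be technical. Samples of SET KO cells given no doxycycline, 2 in number, were not analysed here, and the regions have no matched value from cells without the tagged protein. Peak lists carry no expression values, and the labelled cell type was not checked against marker genes.

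SET is a histone chaperone that binds histones, masks their tails from acetylation and inhibits the phosphatase PP2A. SETα and SETβ are isoforms of the protein that differ at the N terminus. Gene ends in this report are the first or last base of a gene in the RefSeq table of assembly GRCm38.p6, so that a summit near one may lie at a promoter or where a gene stops. Transfer RNA genes, which recur among the regions, are short genes with their promoter inside the transcribed part, read by RNA polymerase III. Some regions lay in gene families or clusters, among them the transfer RNA genes, the cluster around the 4.5S RNA gene and the interferon zeta and Dux families. Short reads are hard to place among near-identical copies, which bears on the folds, ranks and summit positions given there, and how the authors treated such reads is not given in the sources used here.

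Some of the regions lie over a transcription start. The RefSeq promoter windows of GRCm38.p6 run from 250 bases before to 50 bases after a start, and 62 of the 232 regions, or 26.7%, overlapped at least 1 of them. The share was 14.2% over all merged regions, 1.14% over regions found in overexpression alone and 46.4% over regions with an addback pair and no overexpression peak. In these 62 regions the best-ranked summit lay a median of 156 bp from the start, and 46 were within 250 bp of it. Windows of 69 genes were covered, 78 in all. The following 4 come from regions that all 4 addback libraries listed at a −log10 q of at least 5 and that 1 overexpression library listed, and are shown because the addback peaks there are strong and lie over a start. Sequences run 5′ to 3′ on the strand of the gene, and capitals mark matches on either strand to the CCAAT box, the E-box CACGTG, the ETS family core CCGGAA, the GC box core GGGCGG, the TATA box TATAAA or the NRF1 core GCATGCGC.
Gucd1, chr10:75517923-75518222, minus strand: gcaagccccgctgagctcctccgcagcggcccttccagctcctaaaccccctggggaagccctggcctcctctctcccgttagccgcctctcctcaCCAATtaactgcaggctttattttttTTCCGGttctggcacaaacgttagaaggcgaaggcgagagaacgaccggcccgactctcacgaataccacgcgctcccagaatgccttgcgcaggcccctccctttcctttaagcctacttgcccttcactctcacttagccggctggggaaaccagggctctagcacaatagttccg
Mrpl39, chr16:84735195-84735494, minus strand: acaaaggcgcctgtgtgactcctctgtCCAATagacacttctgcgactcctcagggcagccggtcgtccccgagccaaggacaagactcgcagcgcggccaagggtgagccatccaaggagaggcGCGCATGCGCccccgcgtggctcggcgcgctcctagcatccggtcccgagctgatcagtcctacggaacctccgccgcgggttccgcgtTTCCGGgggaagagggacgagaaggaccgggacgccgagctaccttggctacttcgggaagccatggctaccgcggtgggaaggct
Tufm, chr7:126487105-126487404, plus strand: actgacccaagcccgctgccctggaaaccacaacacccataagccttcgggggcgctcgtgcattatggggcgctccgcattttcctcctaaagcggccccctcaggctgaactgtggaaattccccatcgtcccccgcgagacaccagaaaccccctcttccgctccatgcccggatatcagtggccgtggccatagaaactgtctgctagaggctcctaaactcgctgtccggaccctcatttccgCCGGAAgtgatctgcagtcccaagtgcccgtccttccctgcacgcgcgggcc
Nsa2, chr13:97137877-97138176, minus strand: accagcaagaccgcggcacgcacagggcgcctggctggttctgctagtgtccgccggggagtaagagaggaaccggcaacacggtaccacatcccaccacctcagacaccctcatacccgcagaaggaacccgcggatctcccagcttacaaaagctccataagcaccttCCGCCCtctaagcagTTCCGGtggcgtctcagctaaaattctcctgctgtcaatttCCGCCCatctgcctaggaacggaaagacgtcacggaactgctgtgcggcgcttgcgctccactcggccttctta

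The next windows belong to regions in gene families with near copies. Gm13290 and Gm13278 lie in the interferon zeta cluster of chromosome 4, where 7 of the regions form a row, and they show the 2 kinds of promoter in that row. Gm3448 on chromosome 17 lies in a region that 7 libraries listed.
Gm13290, chr4:88773584-88773883, plus strand: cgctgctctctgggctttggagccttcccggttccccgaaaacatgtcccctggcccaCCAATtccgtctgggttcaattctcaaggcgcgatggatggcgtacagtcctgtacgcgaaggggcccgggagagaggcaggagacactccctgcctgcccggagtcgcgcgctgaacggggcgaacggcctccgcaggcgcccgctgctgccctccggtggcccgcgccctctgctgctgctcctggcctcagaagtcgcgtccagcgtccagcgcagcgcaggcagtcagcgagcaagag
Gm13278, chr4:88790645-88790944, plus strand: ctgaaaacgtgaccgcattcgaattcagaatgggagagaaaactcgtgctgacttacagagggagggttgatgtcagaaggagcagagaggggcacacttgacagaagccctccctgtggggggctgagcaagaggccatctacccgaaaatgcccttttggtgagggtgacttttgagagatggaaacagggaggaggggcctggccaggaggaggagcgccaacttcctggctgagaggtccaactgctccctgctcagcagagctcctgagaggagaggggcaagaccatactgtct
Gm3448, chr17:15010135-15010434, minus strand: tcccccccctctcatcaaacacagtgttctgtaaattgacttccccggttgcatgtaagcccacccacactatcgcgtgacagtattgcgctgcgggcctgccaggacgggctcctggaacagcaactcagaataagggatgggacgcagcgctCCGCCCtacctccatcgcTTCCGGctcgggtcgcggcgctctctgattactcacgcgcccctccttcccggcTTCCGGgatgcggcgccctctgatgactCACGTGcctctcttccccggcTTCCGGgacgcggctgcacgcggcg
The Gm13290 window was 100% identical to that of Gm13279 and 99.3% identical to that of Gm13289, both in the same row. The Gm13278 window was 99.7% identical to that of Gm13276, and 47.7% identical to that of Gm13290. Of the 78 windows, 11 shared a run of 50 bases with the promoter of another gene, or 14.1% (Wilson 95% interval 8.06% to 23.5%), against 7.11% of 27307 promoters in scope. Besides 5 windows of the interferon zeta cluster they were those of Gm14325, Gm3696, Gm3448 and Gm52298, and 2 of Gm35279.

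A set of 6 short motifs was counted in the 78 windows and in all 27307, on both strands and as a description. The motif CCGGAA was in 39.7% of the windows and in 14.9% of all promoters. Among the 68 windows of protein-coding genes the share was 42.6%, against 18.9% of all protein-coding promoters. GGGCGG was in 59.0% against 35.6%, but in 57.4% against 46.6% among protein-coding genes. GCATGCGC was in 7.69% against 2.68%, and in 7.35% against 3.53% among protein-coding genes. Some windows overlap or are the same stretch under 2 gene names, and the 78 made up 67 separate stretches. The 31 windows with CCGGAA lay in 25 of these, the 46 with GGGCGG in 39, the 6 with GCATGCGC in 5 and the 6 with CACGTG in 4. The CCAAT box, at 34.6% against 37.3%, and CACGTG, at 7.69% against 7.04%, were about as frequent as over all promoters. TATAAA was in 3.85% against 13.7%. The windows also held more G and C, with a median of 61.3% against 52.7% over all promoters and of 61.7% against 56.7% among protein-coding ones, and the part of this base composition in the motif shares was not tested.

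The number of libraries was low for most regions. The rule asks for at least 3, and 74 regions had 3, 64 had 4, 58 had 5, 26 had 6, 7 had 7 and 3 had all 8. A single overexpression library listed 136 of the 232 regions, while 2 listed 51, 3 listed 23 and all 4 listed 22. On the addback side, 143 regions had 2 libraries, 40 had 3 and 49 had 4. A pair of SETα addback replicates qualified 172 regions without the SETβ pair, the SETβ pair qualified 11 without the SETα pair, and 49 had both. SETα addback libraries had 20754 and 14462 peaks in scope and SETβ addback libraries 2265 and 9066, and the part of list length in these counts was not tested.

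SETβ overexpression replicate 2 decided the largest number of members. It was the sole overexpression library in 94 regions, against 27 for SETα overexpression replicate 2, 11 for SETβ overexpression replicate 1 and 4 for SETα overexpression replicate 1. Both replicate 2 libraries had like numbers of peaks in scope, 2431 for SETβ, of a list of 2869, and 2455 for SETα, of a list of 7675. With the peaks merged again without SETβ overexpression replicate 2, 136 regions met the rule. Both replicates of SETβ overexpression listed 50 regions and both of SETα overexpression 37. Peaks of both overexpressed isoforms were in 76 regions, SETβ alone was in 118 and SETα alone in 38.

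**Figure D1:**
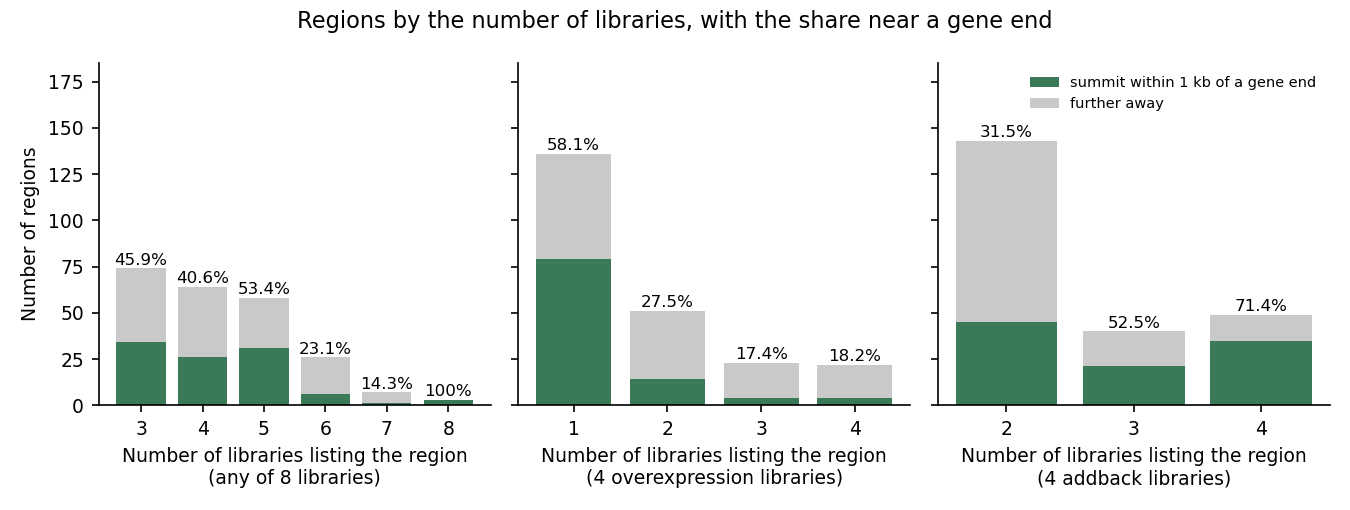
Number of regions (bars) by how many libraries list them, counted over all 8 libraries, the 4 overexpression libraries and the 4 addback libraries. All shares are of the members alone and were not counted in this way over all merged regions. Green is the part with the best-ranked summit within 1 kb of a gene end, with its share above the bar: the share went from 58.1% at 1 overexpression library to 18.2% at 4, and from 31.5% at 2 addback libraries to 71.4% at 4.

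Within each list the member peaks were few. They numbered 257 and 248 in the SETα addback libraries, 83 and 110 with SETβ addback, 68 and 127 with SETα overexpression and 86 and 204 with SETβ overexpression. This was 1.21% to 3.66% of the peaks in scope of an addback library and 5.17% to 8.39% of those of an overexpression library. The deposited fold enrichment, the ratio of signal to local background, had a median of 2.90 to 3.60 for the member peaks of the addback libraries and of 2.66 to 2.798 in the overexpression libraries. Other peaks of the same libraries had medians of 2.91 to 3.58 and of 2.73 to 2.81. Of the member peaks, 50.9% to 72.2% in addback and 10.5% to 18.9% in overexpression had a q no higher than 0.05. In each of the 8 libraries these shares were higher than those of the other peaks, which were 24.2% to 59.6% and 7.06% to 14.1%, a description since the rule selects peaks found in several libraries. At least 1 library listed 63 of the regions, or 27.2%, at a −log10 q of 5 or more. This share was not counted over all merged regions, so it and the like counts given further on describe the members only.

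Gene ends were the next measure, which the rule does not use directly. The best-ranked summit lay within 1 kb of a gene end in 101 of the 232 regions, 43.5% (Wilson 95% interval 37.3% to 50.0%). The share was 34.7% over all merged regions, 9.93% over those found in overexpression alone and 66.2% over those with an addback pair and no overexpression peak. The share of the members thus lay between the shares of these last sets, which have no region in common with the members or with each other. An end of a protein-coding gene was within 1 kb in 80 regions, and a gene of another kind alone in 21. Of the others, 52 lay inside a gene, 60 outside genes and up to 50 kb from an end, and 19 further away.

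Within the members, the share near a gene end differed with the libraries that listed a region. The same split was not made over all merged regions, so it is not read as particular to the members. Of the 136 regions with 1 overexpression library 58.1% were near a gene end (49.7% to 66.0%), and of the 22 with all 4 overexpression libraries 18.2% (7.31% to 38.5%). In the other direction, 31.5% of the regions with 2 addback libraries (24.4% to 39.5%) and 71.4% of the regions with 4 (57.6% to 82.2%) were near one. Of the 94 regions that SETβ overexpression replicate 2 alone made members, 61 were near a gene end, or 64.9%, and 52 of the 80 regions at a protein-coding gene were among the 94. The other 138 members had 40 near one. With the peaks merged again without that library, 41 of 136 regions were near one, or 30.1%.

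Peaks in the regions were compared with the other peaks of their own library, so that each library served as its own control. In SETα overexpression 30.9% and 31.5% of the member summits were within 1 kb of a gene end, against 6.58% and 8.51% of the others. SETβ overexpression had 37.2% and 45.1% against 4.91% and 12.9%. All 4 overexpression libraries therefore had the higher share in the regions, by a mean of 27.9 percentage points ± 4.99 (SD, n = 4). The rule asks for an addback pair, and regions with such a pair lie near gene ends often, so this difference and that requirement cannot be told apart. It is given as a description, with no p.

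In the addback libraries the comparison had no common direction. SETα addback had 47.1% and 45.6% of member summits near a gene end against 39.8% and 48.6% of the others, and SETβ addback had 56.6% and 60.9% against 63.2% and 39.7%. The mean difference was 4.71 points ± 12.5 (SD, n = 4), again a description, since the rule asks for an overexpression peak. It was positive in SETα addback replicate 1 and SETβ addback replicate 2 and negative in the other two, and the mean turned negative, to −7.07 points, without SETβ overexpression replicate 2. The difference in overexpression was 23.2 points above that in addback. This value, too, is a description, because the rule asks for an addback pair, and regions with such a pair and no overexpression peak were near a gene end in 66.2%, against 9.93% of those found in overexpression alone.

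A few regions with many peaks weighed on these values. In SETα overexpression replicate 1, 20 of the 68 member peaks lay in the cluster of transfer RNA genes on chromosome 1. Without that cluster and the 4.5S RNA cluster of chromosome 6, its member share was 6.25% against 6.61% for the other peaks, and the other three overexpression libraries had differences of 17.95, 21.2 and 32.3 points. The mean difference in overexpression was then 17.8 points, that in addback 10.3 points, and the value in overexpression lay 7.47 points above that in addback. Counting 1 peak per region and library instead gave 20.7 points in overexpression, where SETα overexpression replicate 1 had 12.5% against 6.63%. Both alternatives were chosen after seeing the data.

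Between isoforms, the member peaks of SETβ libraries had the higher shares near a gene end. Addback means were 46.3% ± 1.07 (SD, n = 2) with SETα and 58.8% ± 3.03 (SD, n = 2) with SETβ, and overexpression means 31.2% ± 0.434 (SD, n = 2) and 41.2% ± 5.58 (SD, n = 2). The groups did not overlap in either background, and the difference, SETα minus SETβ, was −11.2 points. It turned to 3.07 points without SETα addback replicate 1 and to 1.46 without SETα addback replicate 2, where only the SETβ pair can qualify a region and merging the peaks again gave 54. It was also positive with peaks of −log10 q of at least 1.3, at 1.26 points, and with the strongest 1343 peaks of each library, at 13.9. Without the chromosome 1 and 6 clusters it was −20.8 points, and with 1 peak per region and library −17.6. Members were picked through the isoforms' addback pairs. Regions with the SETα pair alone were near a gene end in 36.6% and those with both pairs in 71.4%. For the 11 with the SETβ pair alone it was 27.3%. The isoform and the pair that qualifies a region cannot be told apart in this difference, which is a description with no p.

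**Figure D2:**
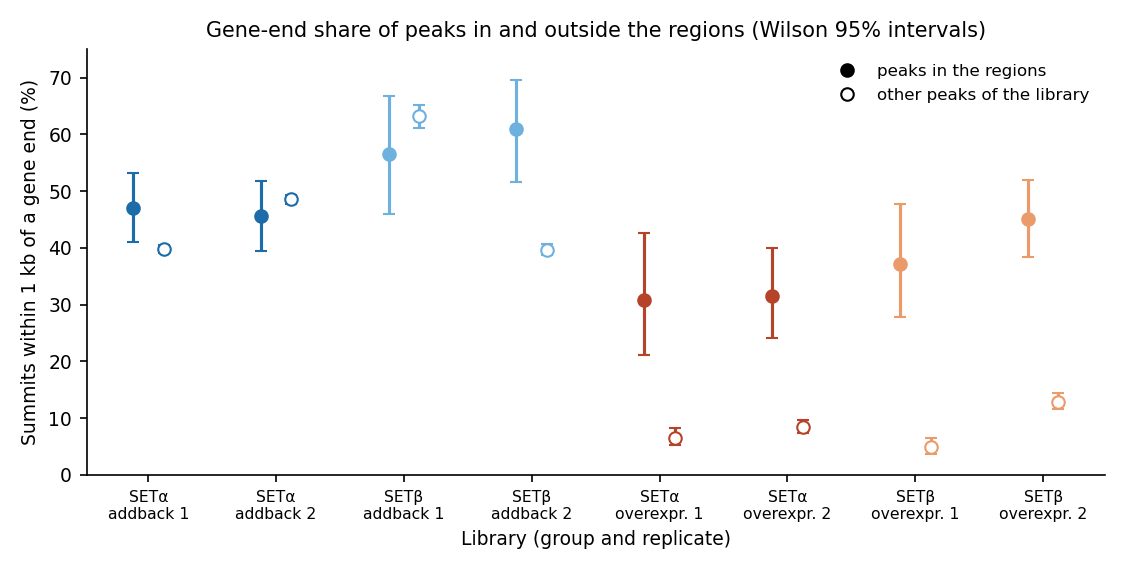
Share of peak summits within 1 kb of a gene end (percent, y axis) in each of the 8 libraries, for peaks in the regions (filled) and all other peaks in scope (open), with Wilson 95% intervals that cover counting error only. The 4 overexpression libraries have 30.9% to 45.1% in the regions and 4.91% to 12.9% outside, while in addback both values lie between 39.7% and 63.2%.

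Of the 80 regions at a protein-coding gene, 68 had 1 overexpression library, 27 were listed in all 4 addback libraries and 32 had any peak at a −log10 q of 5 or more. Median folds of these regions were 3.44 to 4.23 in the addback libraries. In overexpression they were 2.72 to 2.83 in 3 libraries, and SETα overexpression replicate 1 listed 1 of the regions, at 3.68. The best-ranked of them had much higher addback folds beside a weak peak in 1 overexpression library, and are described as such and not as typical of the 80. The region with the best mean rank spanned chromosome 10 from 75517065 to 75518196, with its summit 44 bp inside Gucd1. Its window also holds the start of Snrpd3, which encodes an Sm protein of the spliceosome. Its deposited fold enrichment was 18.9 and 20.9 in the SETα addback libraries, 15.5 and 12.6 with SETβ addback and 3.15 in SETβ overexpression replicate 2. It held rank 15, 20, 37 and 39 in the addback lists and rank 723 in the overexpression list. The other three overexpression libraries listed no peak there.

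Mrpl39, which encodes a protein of the large subunit of the mitochondrial ribosome, had a region 951 bp wide on chromosome 16 from 84734731 to 84735681. The fold was 10.1 and 13.5 with SETα addback, 24.2 and 17.2 with SETβ addback and 2.72 in SETβ overexpression replicate 2, at rank 2073 of the 2869 peaks listed there. Tufm, the mitochondrial elongation factor Tu, had folds of 5.88 and 9.94, 7.21 and 9.56, and 3.15 in the same order, in a region on chromosome 7 from 126486836 to 126487785. The start shared by Gfm2, a mitochondrial ribosome recycling factor, and Nsa2, a ribosome assembly factor, lay in a region on chromosome 13 from 97137528 to 97138592. Its folds were 8.80 and 10.8 with SETα addback, 15.0 and 8.85 with SETβ addback, and 2.47 in SETβ overexpression replicate 2. In each of these regions all 4 addback values lay above the overexpression value, although folds of separately called lists are not on a shared scale.

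Mlec, a lectin of the endoplasmic reticulum, had addback folds of 17.7, 20.2, 19.3 and 18.6, beside 2.63 in SETβ overexpression replicate 2 at rank 2469. Like patterns, with −log10 q at 5 or above in all 4 addback libraries, were found at Nsl1, a kinetochore protein, Gtf2h4, a subunit of the transcription factor TFIIH, Alkbh3, a demethylase of alkylated nucleic acids, Ssr2, a subunit of the translocon-associated complex, and Ufc1, the conjugating enzyme of the modifier UFM1. SETβ overexpression replicate 2 was the overexpression library at those 5 genes. At Yju2, a splicing factor, it was SETα overexpression replicate 2, with a fold of 2.78 at rank 5269 of 7675, and at Antkmt, a mitochondrial methyltransferase, SETβ overexpression replicate 1, with 2.53 at rank 1124 of 1343. Vps51, of a vesicle tethering complex, was the case with both SETβ overexpression replicates, at folds of 2.72 and 3.06. Mlec, Nsl1, Gtf2h4, Alkbh3, Ssr2, Antkmt and Vps51 fall outside the rule for named regions and were chosen after their values were seen, as were the regions at other histone and ribosomal protein genes and in smaller clusters given further on.

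The remaining coding regions among the 10 with the best mean rank were weaker. H3c6, a histone H3 gene, had addback folds of 4.73, 7.48, 6.19 and 3.83 and 3.06 in SETβ overexpression replicate 2. Aebp2, a subunit that accompanies Polycomb complex PRC2, and LOC115488283 were listed in 3 libraries each, with SETα addback folds of 4.18 and 4.45, and of 3.93 and 5.10. The other region of the 10 was a transfer RNA region next to Fcgr3, described further on.

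**Figure D3:**
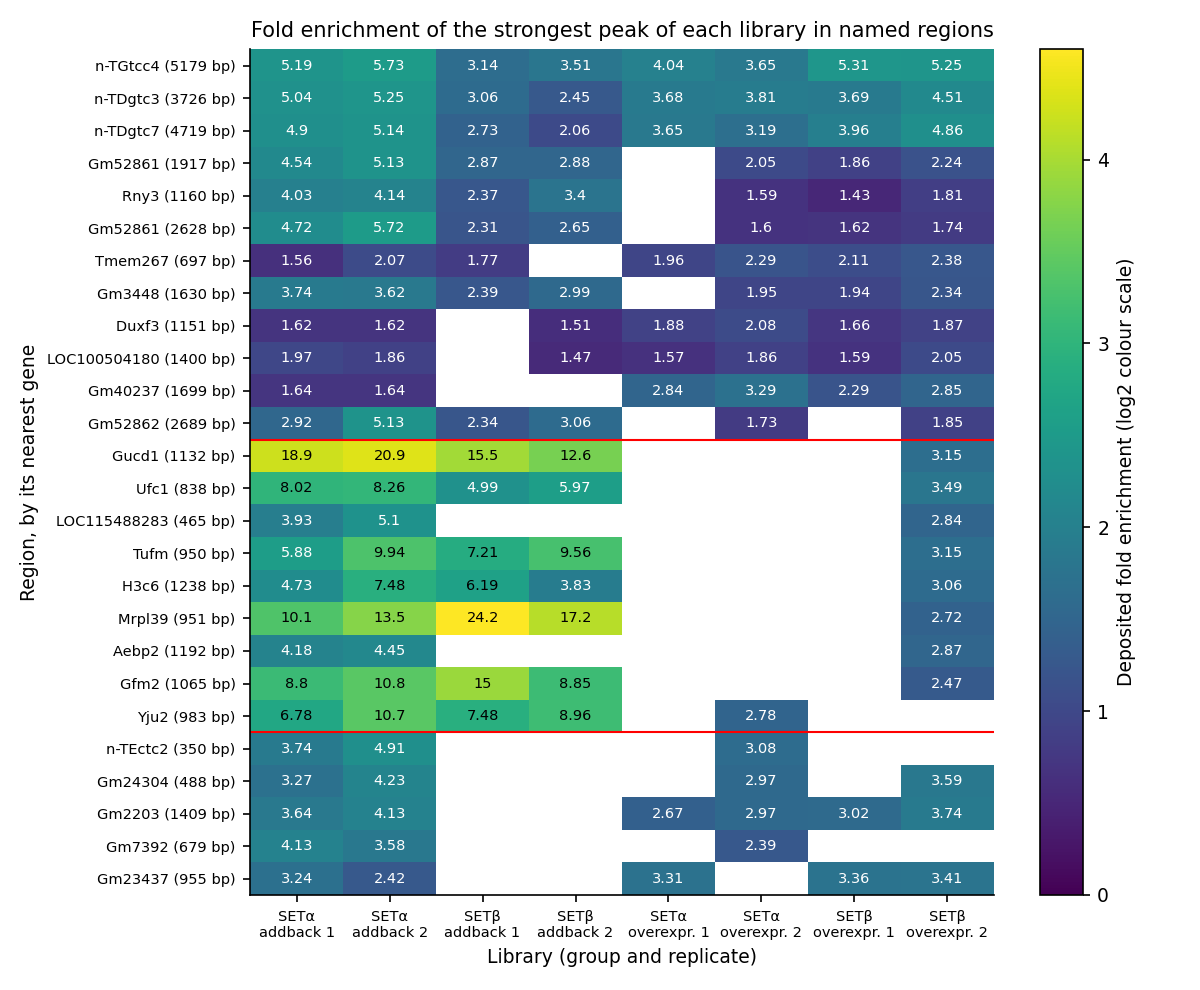
Deposited fold enrichment (ratio; log2 colour scale) of the strongest peak of each library (columns) in named regions (rows, with their width), where white means that no peak was listed. The top 12 rows are the regions in most libraries, the middle rows the best-ranked ones at coding gene ends and the last 5 the best-ranked ones over 50 kb from any gene end. Addback folds reach 24.2 at the coding genes, whereas the transfer RNA regions of the top rows have folds between 2.06 and 5.73 in all 8 libraries.

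Clustering was measured as neighbours within 100 kb. By this measure 56 of the 232 regions, 24.1% (Wilson 95% interval 19.1% to 30.0%), fell into 18 clusters of at least 2. Regions found in overexpression alone had 50.2% in clusters and regions with an addback pair and no overexpression peak 64.3%. With gaps of at most 10 kb the members had 15.9% and these sets, in the same order, 30.2% and 21.5%. With gaps of at most 1 Mb it was 45.7%, against 95.7% and 96.4%. Those sets hold 3696 and 4479 regions, and the part of this number in the shares was not tested. The largest 3 clusters held 12, 7 and 4 regions. Chromosome 4, with 27 regions, chromosome 6, with 26, and chromosome 1, with 22, held the most, and 20 of the 27 on chromosome 4 were near a gene end.

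The cluster on chromosome 1 spanned 171063706 to 171082696 and held the 3 regions that all 8 libraries listed. It covers 15 transfer RNA genes in 3 repeats of 5, each in the order glutamate (CTC), glycine (TCC), aspartate (GTC), leucine (CAG) and glycine (GCC), beginning 7628 and 7614 bp apart. The regions over the repeats were 3726, 4719 and 5179 bp wide, and another of 1375 bp lay between the first and second repeat. In the widest, with the best-ranked summit 288 bp from n-TGtcc4, the folds were 5.19 and 5.73 with SETα addback, 3.14 and 3.51 with SETβ addback, 4.04 and 3.65 with SETα overexpression and 5.31 and 5.25 with SETβ overexpression. It ranked 49 and 129 in the SETα overexpression lists and 14 and 34 in the SETβ overexpression lists, and 442 to 615 in the addback lists. The region at n-TDgtc3 had folds between 2.45 and 5.25 and the one at n-TDgtc7 between 2.06 and 5.14, in both cases lowest in SETβ addback replicate 2 and highest in SETα addback replicate 2.

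Peaks of this cluster numbered 92. A median of 220 bp separated their summits from the nearest transfer RNA gene, and 54 were within 250 bp, while 4 libraries had 1 summit inside such a gene and the other four had none. The leucine genes had 13 summits nearest to them, all within 250 bp, and the glycine (TCC) genes 18, of which 14 were. The outer genes had more distant ones, with 7 of 24 summits at the glutamate genes and 10 of 25 at the glycine (GCC) genes within 250 bp. Inner genes have a neighbour on both sides, which limits how far a summit nearest to them can lie. Only the outer genes border the stretches outside the repeats. The part of this layout in the counts was not tested. Between repeats, 16 summits from all 8 libraries lay 1017 to 2475 bp from the nearest gene. Overexpression libraries split the regions into more peaks, with 20 and 14 for SETα and 17 and 12 for SETβ, against 8 and 9 and 7 and 5 in addback. The cluster thus held 29.4%, 11.02%, 19.8% and 5.88% of all member peaks of the overexpression libraries, and 3.11% to 8.43% of those in addback.

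**Figure D4:**
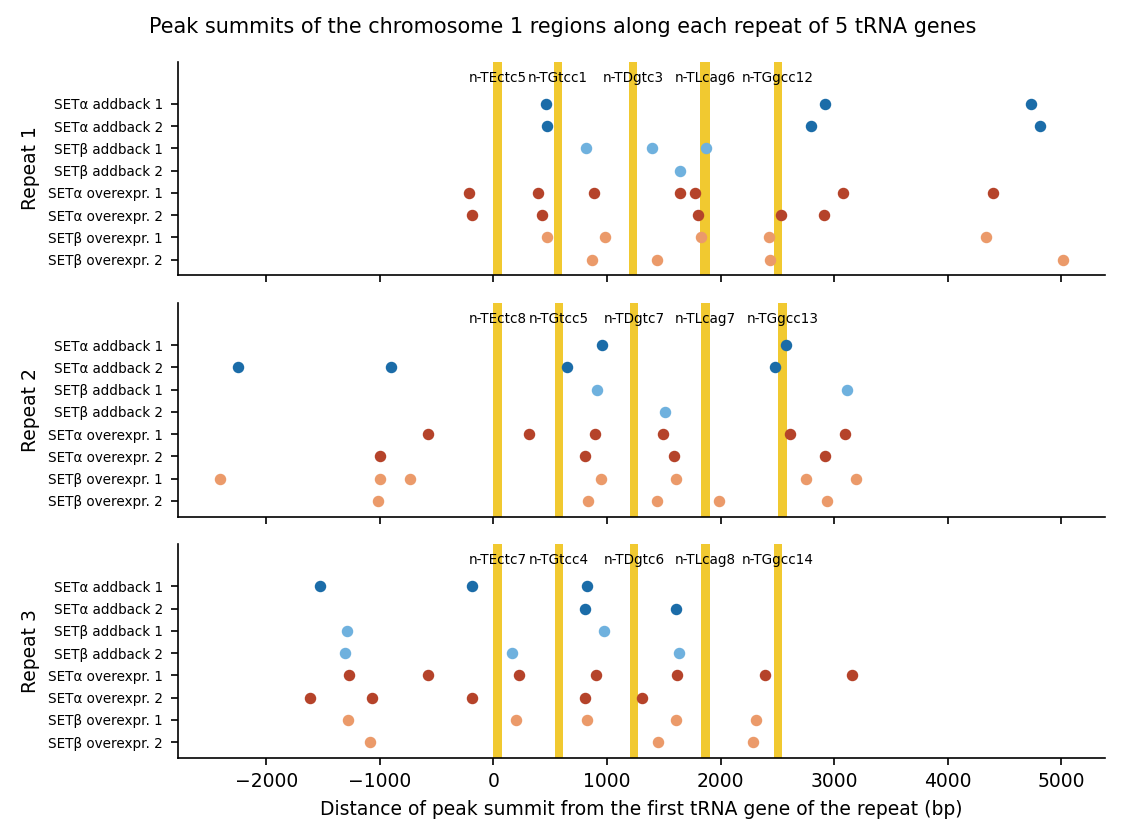
Position of each of the 92 peak summits of the chromosome 1 cluster (points, by library) relative to the first transfer RNA gene of the nearest repeat (bp, x axis), with the genes as yellow bars. Summits of all 8 libraries lie between and beside the genes in each of the 3 repeats.

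The cluster on chromosome 6 was the largest and differed in its libraries. Its 12 regions spanned 47651593 to 47773178 around Rn4.5s, the gene of 4.5S RNA, a small noncoding RNA of rodents made by RNA polymerase III. All 12 were listed in both SETα addback libraries, 11 in each SETβ addback library, 10 in SETα overexpression replicate 2, 11 in SETβ overexpression replicate 2, 4 in SETβ overexpression replicate 1 and 0 in SETα overexpression replicate 1. At least 1 library listed each at a −log10 q of 5 or more. The median fold over the regions was 3.92 and 5.11 in SETα addback, 2.54 and 2.75 in SETβ addback, and 1.62, 1.74 and 1.72 in the overexpression libraries that listed any. Every addback fold in the cluster was at least 2.19, and the overexpression folds were 1.39 to 2.37.

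Regions of this cluster were spaced evenly in part. Of the 11 distances between neighbouring best-ranked summits, 5 were between 4196 and 4446 bp. Its widest region, 4071 bp, had folds of 5.01 and 6.86 with SETα addback, 3.19 and 2.75 with SETβ addback and 1.69 in SETβ overexpression replicate 2. The region from 47739043 to 47740959, 1261 bp from the end of the long noncoding RNA gene Gm52861, was listed in 7 libraries and ranked 76 in SETβ overexpression replicate 2, with a fold of 2.24, beside 4.54 and 5.13 in SETα addback. The table names a single Rn4.5s gene in the cluster, in a region with addback folds of 3.17, 4.32, 2.54 and 2.64 and an overexpression fold of 1.43. Rny3, the Y3 RNA, was the nearest gene to the last region, at 9315 bp.

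The interferon zeta cluster lay on chromosome 4. Its 7 regions spanned 88763151 to 88797551, were 541 to 1182 bp wide, and all had a summit within 1 kb of a gene end, at Gm13284, Gm13290, Gm13289, Ifnz, Gm13276, Gm13278 and Gm13279. Interferon zeta, also called limitin, is a type I interferon of the mouse with many gene copies. Both SETα addback libraries and SETβ overexpression replicate 2 listed all 7, SETβ addback replicate 2 listed 5, SETβ overexpression replicate 1 listed 3, SETα overexpression replicate 2 listed 2 and SETβ addback replicate 1 listed 1. At Gm13278 the folds were 4.57 and 3.14 in SETα addback, 2.69 and 3.32 in SETβ overexpression, with rank 202 in the latter's replicate 2. At Gm13276, in 6 libraries, SETα addback had 3.50 and 5.09, SETβ addback 2.20 and 3.75, SETα overexpression replicate 2 had 1.84 and SETβ overexpression replicate 2 had 2.02. A single region of the 7 reached a −log10 q of 5 in any library. The promoter windows of Gm13290 and Gm13278 printed above belong to this row, as do the near-identical windows named beside them.

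The remaining clusters held 2 or 3 regions each, and all are given here by their nearest genes. On chromosome 3, 3 regions between 96457805 and 96500870 lay at the histidine transfer RNA genes n-THgtg9 and n-THgtg8 and at Gm25890, a small nuclear RNA gene. On chromosome 13, 3 regions between 23517825 and 23576287 lay at H3c6, H3c4 and the serine transfer RNA gene n-TStga1. On chromosome 17, 3 regions between 15009114 and 15025462 lay at Gm3448, Gm3435 and Gm52298. The Gm3448 region was listed in 7 libraries, with folds of 3.74 and 3.62 in SETα addback, 2.39 and 2.99 in SETβ addback, 1.95 in SETα overexpression replicate 2 and 1.94 and 2.34 in SETβ overexpression. On chromosome 10 a pair of regions lay at LOC100504180 and Duxf3, of the Dux repeat, whose protein switches on genes of the early embryo. All 4 overexpression libraries, both SETα addback libraries and SETβ addback replicate 2 listed both, at folds of 1.47 to 2.08. Other pairs had a different gene nearest to each region: H3c11 and H2bc23, Zfp979 and Zfp534, Gm13233 and LOC115486238, Cactin and Gm48551, Adarb2 and Wdr37, Vps51 and Zfpl1, and Kmt5a and Tmed2. In the last pairs a single gene, Aebp2, Tmem267, Smgc or n-TEctc2, was nearest to both regions.

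Among the 22 regions that all 4 overexpression libraries listed, 4 were near a gene end, the 3 transfer RNA regions of chromosome 1 and a region at Gm40237, a long noncoding RNA gene. The latter spanned chromosome 4 from 118547103 to 118548801 and had its best ranks in overexpression. Its summit lay inside the gene, 287 bp from the nearer gene end, and 563 and 830 bp past the starts whose windows the region overlaps. The promoter window that lies wholly in the region holds a short unit repeated in tandem, so the limit on placing short reads applies here too. Folds there were 2.84 and 3.29 with SETα overexpression, at ranks 11 and 14, and 2.29 and 2.85 with SETβ overexpression, at ranks 27 and 6. Both SETα addback libraries listed it, at a fold of 1.64 each and ranks 1365 and 5427, and neither SETβ addback library did. A region inside Tmem267 on chromosome 13 from 119596466 to 119597162 was listed in 7 libraries, with 1.96 and 2.29, and 2.11 and 2.38, in overexpression and 1.56, 2.07 and 1.77 in addback. Its overexpression ranks of 289, 97, 55 and 42 came with addback ranks of 19008, 2266 and 963, from lists of different length.

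The 19 regions over 50 kb from any gene end had no gene to describe them by. At the best-ranked of them with all 4 overexpression libraries, on chromosome 15 from 45589130 to 45590538, the folds were 3.64 and 4.13 in SETα addback, 2.67 and 2.97 in SETα overexpression and 3.02 and 3.74 in SETβ overexpression. The nearest gene, the pseudogene Gm2203, was 372865 bp away. Others in this group were 350 bp wide on chromosome 12 (3 libraries, nearest gene n-TEctc2 at 214130 bp), 488 bp on chromosome 5 (4 libraries), 679 bp on chromosome 12 (3 libraries) and 955 bp on chromosome 14 (5 libraries). SETα addback folds in those 4 lay between 2.42 and 4.91 and overexpression folds between 2.39 and 3.59. Of the 19, 5 had all 4 overexpression libraries and none had all 4 addback libraries.

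Each member joins peaks of at least 3 libraries, and the part of this merging in the widths was not tested. The median was 757 bp (95% interval 704 to 817), from 308 to 5179 bp. Regions found in overexpression alone had a median of 259 bp, those with an addback pair and no overexpression peak 576 bp and all merged regions 265 bp. The median width of single peaks was 346 to 386 bp in the regions and 249 to 287 bp outside in the addback libraries. In overexpression it was 288 to 342.5 bp and 252 to 265 bp, so member peaks had the higher median in each of the 8 libraries. A wider peak more easily overlaps peaks of other libraries, as the rule requires, so these widths are a description and no test was made. The median width was 580.5 bp for regions in 3 libraries, 731 for 4, 944.5 for 5, 1153.5 for 6, 1400 for 7 and 4719 for 8. Over 2000 bp wide were 12 regions, of which 7 lay in the chromosome 6 cluster and 3 in the chromosome 1 cluster. Outside the clusters, a region on chromosome 12 from 62547767 to 62549849 was also among the 12.

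**Figure D5:**
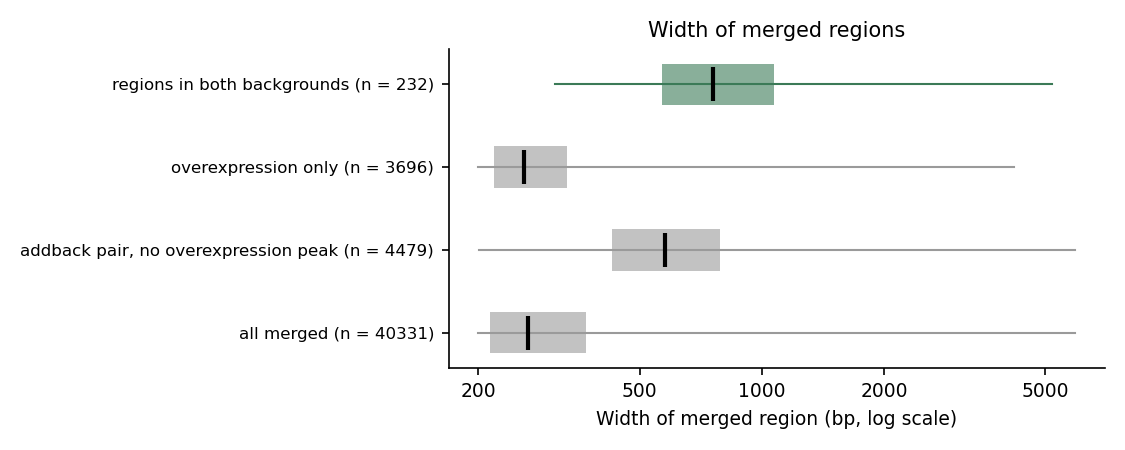
Width of merged regions (bp, log axis) in 4 sets, with the median (black mark), the middle 50% (box) and the range (line). The regions of both backgrounds have a median of 757 bp against 259, 576 and 265 bp in the other sets, and each of them joins peaks of at least 3 libraries.

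Peaks of one region did not always share a summit. For libraries of the same group, the median distance between the summits of their strongest peaks in a region was 70.5 to 146 bp over 4 pairs of replicates. For libraries of different isoforms in the same background it was 74.0 to 164 bp over 8 pairs, and between backgrounds 145 to 415 bp over 16 pairs. The best-ranked overexpression summit and the best-ranked addback summit were a median of 198 bp apart, and within 150 bp of each other in 97 of the 232 regions. Near gene ends the median was 248 bp, and away from them 153 bp. The overlap was direct in 230 regions, where an overexpression peak shared at least 1 bp with an addback peak of the qualifying pair, and covered at least 50% of both peaks in 136.

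Peaks that the authors kept for ranking alike in both replicates, by the irreproducible discovery rate (IDR), met few of the regions. The SETα addback list overlapped 29, the SETβ addback list 21, the SETα overexpression list 2 and the SETβ overexpression list 4. No such peak was in 196 regions, or 84.5%. These overlaps were not counted over all merged regions, so they describe the members only. A list of each background was met in 2, the chromosome 1 region at n-TDgtc3 and the chromosome 6 region from 47739043.

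Classes of the genes at the regions were counted beside the same classes over all merged regions. A summit within 1 kb of a protein-coding gene end was found in 34.5% of the regions against 28.2% over all, and of a long noncoding RNA gene in 6.47% against 6.94%. Pseudogenes had 3.02% against 2.11%. Transfer RNA genes had 7 regions, or 3.02% against 0.513%, of which 3 belonged to the chromosome 1 cluster. Histone genes had 6, or 2.59% against 0.233%, namely H3c11, H2bc23, H4c9, H3c6, H3c4 and H4f16, which encode core histones. In 5 of the 6 the SETα addback pair alone qualified the region, with SETα addback folds of 3.24 to 4.55 and overexpression folds of 1.95 to 3.41.

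Ribosomal protein genes, at Rpl8, Rps20 and Rpl5, had 3 regions, or 1.29% against 0.374%. Zinc finger genes, at Zfp979 and Zfp949, had 2, or 0.862% against 0.731%. Small nuclear and nucleolar RNA genes had 2, or 0.862% against 0.598%. One region each lay at a microRNA gene, Mir6546 in the chromosome 1 cluster (0.431% against 0.419%), and at Rn4.5s, which the table types as ribosomal RNA (0.431% against 0.00744%). Olfactory and vomeronasal receptor genes had 0 regions, against 0.062% over all. Regions found in overexpression alone had 6.47% at protein-coding genes, 2.06% at long noncoding RNA genes and 0.0812% at transfer RNA genes. They had 0.162% at histone genes, 0.244% at ribosomal protein genes and 0.325% at zinc finger genes. In the same order, regions with an addback pair and no overexpression peak had 59.8%, 12.1%, 0.96%, 0.424%, 0.915% and 1.41%. A region can count under more than 1 class, and these shares carry no test.

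Of 22 pluripotency genes on the analysed chromosomes none had a region within 1 kb of an end, while 106 of all 17752 protein-coding genes, or 0.597%, did. Set itself had 0.

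The 3 regions just inside the rule had needed peaks close to the highest p of the lists. They lay on chromosome 9 from 39443583 to 39443973 near Olfr953-ps1, on chromosome 1 from 158331577 to 158332485 in Brinp2, and on chromosome 16 from 76143111 to 76143552 with Gm22268 as the nearest gene. The lowest −log10 p that kept them in was 2.43, 2.44 and 2.44. Just outside were 844 regions with an overexpression peak and an addback peak but no pair, of which 779 had 1 addback library. The strongest of these were on chromosome 7 from 60209675 to 60209925, 52917 bp from Gm7367 and with a −log10 p of 52.9, on chromosome 9 from 78478521 to 78478961, 330 bp from Eef1a1, with 27.2, and on chromosome 19 from 28155312 to 28155966, which all 4 overexpression libraries and SETα addback replicate 1 listed, with 16.7. Near a gene end were 15.0% of the 844.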

How the data were processed

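Chromatin immunoprecipitation of HA-tagged SETα or SETβ was sequenced in 8 libraries, 2 replicates in each of 4 groups. The submitters' processing notes name Bowtie2, MACS2 and deepTools and the builds GRCm38 and mm10, with no versions. The control library, filters and depth are not given in the sources used here. Peaks were called in each library separately, per the deposited files, and the authors' highest p was 0.00499. The deposited fold is a linear ratio of signal to local background, and the deposited −log10 values of p and q come from the peak caller. Ranks, thresholds and descriptions from them were made inside each list. In the authors' lists by irreproducible discovery rate (IDR), 1 per group, replicates were combined.

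Peaks were merged, counted from 1, and set against gene ends and promoters of RefSeq tables of GRCm38.p6, with 49993 genes and 32851 promoters. Chromosomes 8 and 11 were not analysed here. Ranks follow −log10 p and then fold over the whole list of a library. A gene end counted as near within 1 kb, and clusters are regions with gaps of at most 100 kb. Exact permutation tests over libraries were run for the gene-end differences, but the rule that picks the regions bears on each of them, so no p is given. Intervals of shares are Wilson 95% intervals and that of the median width comes from order statistics. They cover counting error only. The merging was checked on simulated lists, where it recovered 199 of 199 planted regions. Python 3.11.15, pandas 2.3.3, numpy 2.4.6, scipy 1.17.1 and matplotlib 3.10.9 were used.

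Regions described one by one were those in most libraries (12), in IDR lists of both backgrounds, the widest 5, the 3 largest clusters, the 10 best-ranked at coding gene ends, the 5 best-ranked over 50 kb from any gene, and 3 on each side of the rule. The members, this rule and the gene lists were chosen with earlier results of these data known. Alternatives changed the peak threshold, the overlap, the window, the cluster gap, the genes and the libraries used. One gene, with the gene list it belongs to, is not reported here.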

Additional observations from a re-analysis of the deposited data

How the results depend on the processing

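Without each library in turn, the number of regions ranged from 54 to 228, the share near a gene end from 30.1% to 61.1%, the median width from 737.5 to 1010 bp and the share in clusters from 24.4% to 33.3%. The lowest number came without either SETα addback replicate, where the SETβ pair alone can qualify a region and merging the peaks again gave 54. With peaks of −log10 q of at least 1.3 there were 21 regions, 28.6% near a gene end, with a median width of 930 bp and 33.3% in clusters. With the strongest 1343 peaks of each library there were 19 regions, with 68.4%, 1217 bp and 52.6%. Overlap of 50% of both peaks left 136 regions, with 29.4%, 637.5 bp and 16.9%. The gene-end share was 23.7% with a window of 250 bp, 51.3% with 2.5 kb and 34.5% for protein-coding genes alone. The share in clusters was 15.9% with gaps of at most 10 kb, 45.7% with gaps of at most 1 Mb and 18.5% without the chromosome 1 and 6 clusters, an alternative chosen after seeing the data.

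The difference within addback libraries reversed to −20.0 points at the −log10 q of at least 1.3, to −9.46 with the strongest peaks, to −9.03 with 50% overlap and to −0.87 with protein-coding genes alone, and lay between −7.07 and 14.4 points without each library. The difference between isoforms reversed to 1.26 points at the −log10 q of at least 1.3 and to 13.9 with the strongest peaks, and lay between −13.1 and 3.07 without each library. It was −20.8 without the chromosome 1 and 6 clusters and −17.6 with 1 peak per region and library, both alternatives chosen after seeing the data. The difference within overexpression libraries was positive under all 18 alternatives, from 11.8 to 69.8 points. Its excess over addback was too, from 5.87 to 79.3 points. The replicate block, which cannot change these values, is among the 18. Neither value can be told apart from what the rule asks for. The cause of the changes under the alternatives was not tested.

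Whether replicate numbers pair the samples is not known. Correlations of same-numbered deviations between groups were −0.040 to 0.065 over 6 pairs of groups. They cannot decide this, because they run over all 40331 merged regions, including those that neither group lists. In this balanced design a replicate block cannot change a mean difference, so the values of 27.9, 4.71, 23.2 and −11.2 points stay the same with it.

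Depth was not known, and absence from a list was not read as absence of binding. No library without the tagged protein was analysed here.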

Other observations

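Regions that meet the same conditions outside the scope of the report were also counted. In the segment of chromosome 6 between 118 and 136 Mb there were 205, of which 2 were listed in all 8 libraries, among 6122 merged regions. The X chromosome held 26, 6 of them in all 8 libraries and the widest 14253 bp, among 1986. On the Y chromosome there were 15, of which 7 were in all 8 libraries and the widest was 14075 bp, among 136.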
